A study of Homo sapiens with 12 samples.

Results

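The cytosolic ribosomal protein genes were examined, that is, the genes whose products form the large (60S) and small (40S) subunits of the ribosome outside the mitochondria. They were taken by symbol (RPL or RPS with a number, RPLP0, RPLP1, RPLP2 and RPSA, with the endings A, X, L, L1 and AL), and 84 of the 85 matching genes had a mean value of at least 10 over the untreated libraries. They belong to the 13811 genes at or above that mean, of 22379 genes in all. The 84 comprised 43 genes of the 60S subunit, 31 of the 40S subunit, 3 of the P stalk and 7 paralogs, which are second copies that encode a close relative of a canonical ribosomal protein: RPL7L1, RPL10L, RPL22L1, RPL26L1, RPL36AL, RPL39L and RPS27L. The gene below the minimum was RPL3L, with an untreated mean of 2.08, and the lowest gene above it was RPL10L, with 356.3.

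The RNA came from U2OS, an osteosarcoma cell line, and its polyadenylated part was sequenced in 12 libraries, 2 replicates for each of 6 groups. Cells carried a nontargeting guide RNA (NONT), a guide against NUP93, a nuclear pore protein (NUP93-KO), or a guide against EXOSC5, a subunit of the RNA exosome (EXOSC5-KO), each with Cas9 from a plasmid. Each genotype received vehicle (DMSO, labelled untreated) or 1 μM triptolide, an inhibitor of RNA polymerase II initiation, for 8 h. The knockouts were pools of transiently transfected and puromycin-selected cells, not clones, and nothing states that replicates were separate cultures, so p-values measure the spread between samples, which may be technical.

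Values were scaled by the authors to ERCC spike-in RNAs that were added in proportion to cell number, and the gene values of a library summed to between 4.90 M and 16.4 M (M for mega). NUP93 stood at 1753 and 2489 in untreated NONT and at 1395 and 1432 in untreated NUP93-KO. EXOSC5 stood at 299 and 481 in untreated NONT and at 216 and 148 in untreated EXOSC5-KO. Both targeted transcripts were thus lower than in NONT but still present, which does not measure how many cells were edited. The untreated NONT replicates differed in scale, with totals of 11.3 M and 16.4 M. Of the U2OS markers, COL1A1, SPARC and VIM were abundant in every library and RUNX2 lay between 218 and 404 in untreated cells. CDKN2A, which U2OS is known not to express, and the T cell gene CD3E were listed at 0 throughout, PTPRC and PECAM1 did not exceed 4.70 and 9.99, and EPCAM and CDH1 lay between 13.5 and 69.7.

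A ribosome translates mRNA into protein and carries 1 copy of most of its proteins. The large subunit holds the site where peptide bonds form and the stalk of acidic P proteins that recruits translation factors, and the small subunit reads the mRNA. Transcripts for these proteins are among the most abundant of a growing cell and are known to be long-lived. Most of them begin with a C followed by a run of pyrimidines, the 5′ terminal oligopyrimidine (TOP) motif, through which mTOR signalling and LARP1 control their translation and stability.

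The bases around the annotated start of transcription, where the motif sits, are shown for paralogs and canonical partners. RPL36AL, RPL10L and RPL39L had the lowest responses of the 7 paralogs to triptolide in NONT. Whether the motif bears on that was not tested. RPL39L was not matched, and the partners RPL7 and RPL10 are not shown. Each line gives 10 bases before and 20 bases after the start from RefSeq (GRCh38.p14), 5′ to 3′ on the coding strand. Capitals mark the pyrimidine run where base 1 is C and bases 2 to 5 are C or T, and a line without capitals has no such run at its start. The RPL36AL line has pyrimidines at all 10 bases before the start and is unmarked because of a G among bases 2 to 5, so its status rests on the annotated start. For RPL26L1, the first of 2 annotated starts is shown, and neither has the run.
RPL36A: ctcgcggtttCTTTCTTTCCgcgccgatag
RPL36AL: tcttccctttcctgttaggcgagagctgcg
RPS27: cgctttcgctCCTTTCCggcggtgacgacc
RPS27L: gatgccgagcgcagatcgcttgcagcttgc
RPL22: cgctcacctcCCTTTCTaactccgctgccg
RPL22L1: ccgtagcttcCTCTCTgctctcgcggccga
RPL26: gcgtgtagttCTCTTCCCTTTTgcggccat
RPL26L1: tccaggggtcggcgaacgaaacgcggagct
RPL7L1: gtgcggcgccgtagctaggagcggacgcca
RPL10L: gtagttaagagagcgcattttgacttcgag
RPL39: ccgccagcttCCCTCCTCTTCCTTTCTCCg

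The windows lie at chrX:101391001-101391030 (plus strand) for RPL36A, chr14:49620607-49620636 (minus) for RPL36AL, chr1:153990752-153990781 (plus) for RPS27, chr15:63157458-63157487 (minus) for RPS27L, chr1:6199576-6199605 (minus) for RPL22 and chr3:170870176-170870205 (minus) for RPL22L1. Those of RPL26, RPL26L1 and RPL7L1 lie at chr17:8383174-8383203 (minus), chr5:172958719-172958748 (plus) and chr6:42879606-42879635 (plus). Those of RPL10L and RPL39 lie at chr14:46651762-46651791 (minus) and chrX:119791611-119791640 (minus). A start sequence was matched for 68 of the 84 genes. The run of C and at least 4 further pyrimidines, searched on the coding strand at the start only, was found in 46 of 62 canonical genes (74.2%) and in 1 of 6 paralogs, RPL22L1. Of all 27305 genes with a start sequence, 5.14% had it, and of 10497 tested genes 7.37%. All 3 P stalk genes had it, as did 25 of 35 genes of the 60S subunit and 18 of 24 of the 40S subunit. A match, or the lack of one, is a description of these letters and not a measured start site.

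In untreated cells the ribosomal protein genes were at the top of the range of levels. Per kilobase of canonical transcript, their median untreated level was 10642, against 102 over 12995 tested genes with a transcript length, and 57 of the 84 lay at or above the level that marked the highest 1% of genes. RPLP0, which encodes the base of the P stalk, was highest at 36556 per kb, followed by RPL8 at 34548 and RPS18 at 30471. The lowest were RPL10L at 461, RPS27L at 443 and RPL22L1 at 370 per kb. The 7 paralogs had a median of 555 per kb and the 77 canonical genes one of 11615. These levels depend on the annotated length, which was 6110 bases for RPS27L and 4499 for RPL7L1. Without division by length, the untreated mean of RPS27L was 2709, beside 2778 for RPS25. Such means ran from 356 to 3730 for the paralogs and from 1251 to 40395 for the canonical genes. RPL36AL, at 5130 per kb, was close to its partner RPL36A at 4920 per kb and was the only paralog of the 7 above 1097 per kb, the level of RPL26L1.

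After triptolide the ribosomal protein genes took a larger share of all mRNA in all 3 genotypes. In NONT the 84 genes held 6.82% and 6.58% of all gene values without drug, and 9.60% and 10.1% with it. In NUP93-KO they held 7.01% in both untreated replicates, and 9.60% and 9.82% with triptolide. In EXOSC5-KO they held 6.53% and 6.72%, and then 9.43% and 9.42%. Treated and untreated libraries did not overlap in any genotype, and the shares rose 1.47-fold (1.41 to 1.53 over the 4 ways to divide a treated by an untreated library), 1.39-fold (1.37 to 1.40) and 1.42-fold (1.40 to 1.44). With 2 libraries a group an exact permutation test cannot reach the threshold, and none was made. Subunits moved alike. In NONT the 60S genes went from 3.61% and 3.52% to 5.01% and 5.24%, the 40S genes from 2.60% and 2.47% to 3.75% and 3.95%, and the P stalk from 0.522% and 0.504% to 0.754% and 0.797%. The paralogs together held 0.0844% and 0.0873% without drug and 0.0878% and 0.0958% with it.

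**Figure D1:**
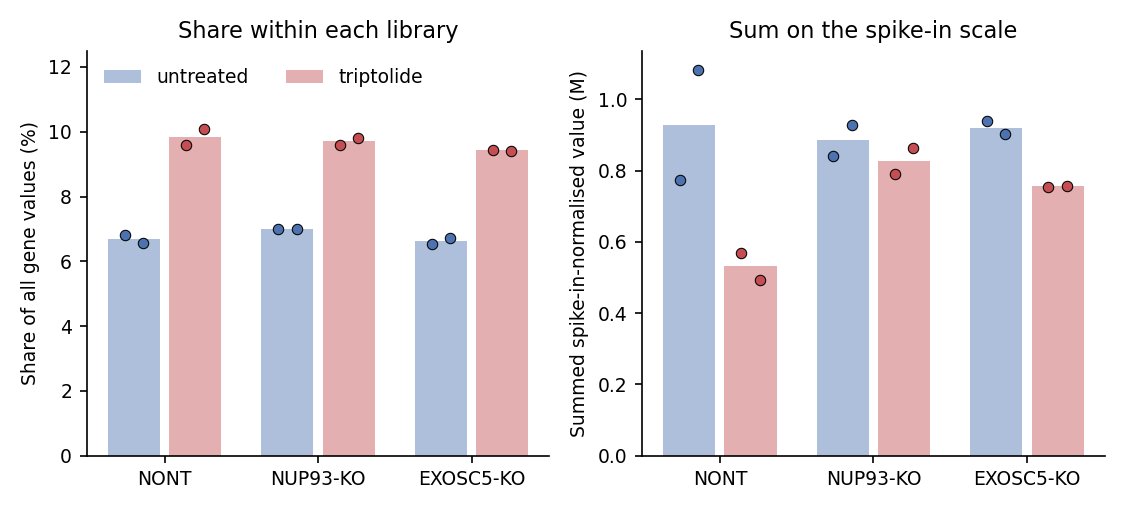
Left, share of all gene values held by the 84 ribosomal protein genes in each library (%). Right, their summed value on the spike-in scale (M). Bars are means of 2 replicates and points are libraries. The share lay between 6.53% and 7.01% in the 6 untreated libraries and between 9.42% and 10.1% in the 6 treated ones, whereas the sum was lower with triptolide in NONT and EXOSC5-KO and overlapped in NUP93-KO.

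The share rose although the amount on the spike-in scale did not. The summed value in NONT was 0.772 M and 1.08 M without drug and 0.570 M and 0.493 M with it, a ratio of 0.573 (0.456 to 0.737). In NUP93-KO it was 0.841 M and 0.929 M against 0.790 M and 0.863 M (ratio 0.934, 0.850 to 1.03), so that the groups overlapped. In EXOSC5-KO it was 0.940 M and 0.901 M against 0.755 M and 0.756 M (ratio 0.820, 0.803 to 0.839). The sum of all other genes had lower ratios, of 0.377 (NONT), 0.654 (NUP93-KO) and 0.559 (EXOSC5-KO). In bulk RNA, fewer cells holding a transcript and less of it per cell cannot be told apart.

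Gene by gene, the ribosomal protein transcripts changed less than most and kept close together. On the spike-in scale, as log2(value + 1), their median response to triptolide was −0.77 (NONT), −0.09 (NUP93-KO) and −0.27 (EXOSC5-KO), where it was −1.62, −0.92 and −1.08 over all 13811 genes. The middle 50% of the members spanned 0.14, 0.13 and 0.18 log2 units, compared with 1.60, 1.58 and 1.48 for all genes. In limma, with p-values adjusted over all genes by Benjamini-Hochberg and a threshold of 0.05, 83 of the 84 fell in NONT, where 90.0% of all genes did. In NUP93-KO 5 fell, where 55.1% of all genes did, and in EXOSC5-KO 8 fell, where 64.3% did. None rose in any genotype. The 5 that fell in NUP93-KO were RPL36AL, RPL39L, RPL10L, RPL7L1 and RPL9, and in EXOSC5-KO RPL26L1, RPL18 and RPL23 joined them. These small counts moved with single libraries. Without either untreated NONT replicate 8 fell in NUP93-KO and 44 in EXOSC5-KO. Without NUP93-KO triptolide replicate 1 or any 1 EXOSC5-KO library 3 fell in NUP93-KO, and without NUP93-KO untreated replicate 2 there were 2 lower and 1 higher. Without any 1 library of NUP93-KO or EXOSC5-KO, 4 or 5 fell in EXOSC5-KO. The counts also moved with the fit and the scale, and the shares of all genes under these alternatives are not given here. When each genotype was fitted on its own 4 libraries, 13 (NONT), 7 (NUP93-KO) and 74 (EXOSC5-KO) members fell, and with libraries scaled to the same sum of mitochondrial mRNAs 64, 60 and 48 did.

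**Figure D2:**
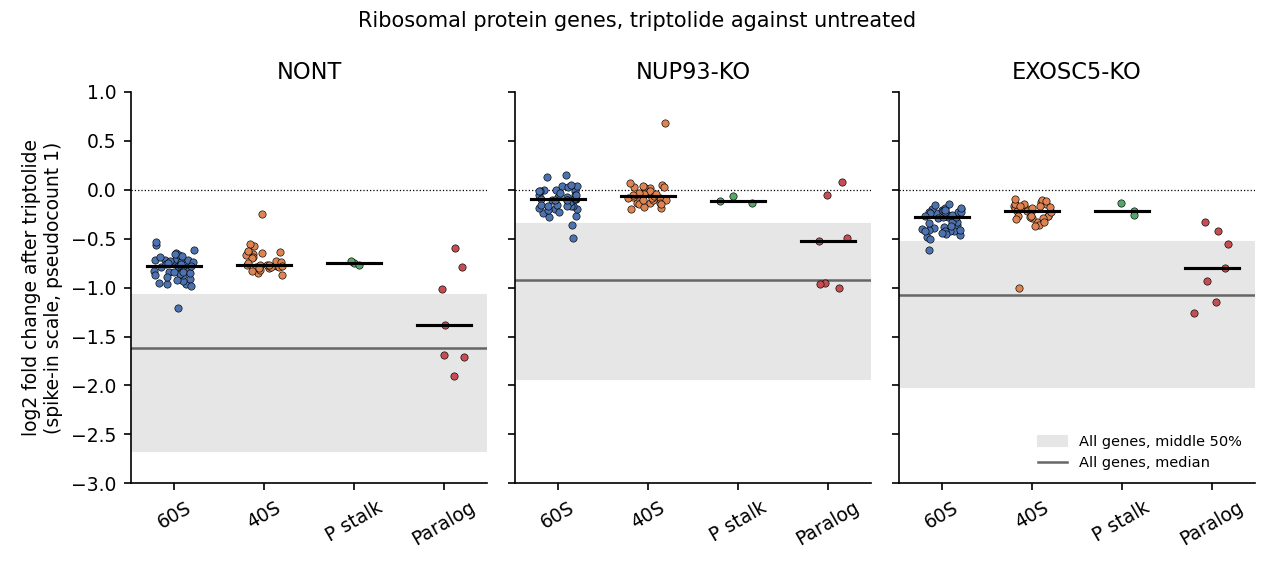
Response to triptolide of each ribosomal protein gene (log2 fold change, treated minus untreated, spike-in scale) by class and genotype. Points are genes, black bars class medians, the grey line the median of all 13811 genes and the grey band their middle 50%. The canonical genes lie above the band except for RPL9 in each genotype, RPL18 in NUP93-KO and RPS9 in EXOSC5-KO, whereas RPL36AL, RPL10L and RPL39L lie below the grey line in NONT and NUP93-KO.

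When each library was centred on the median gene, which removes a shift common to all genes, 79 of the 84 rose in NONT, where 28.7% of all genes did. In NUP93-KO 80 rose against 28.3% of all genes, and in EXOSC5-KO 79 rose against 27.9%. All 43 genes of the 60S subunit, all 3 of the P stalk and 30 of 31 of the 40S subunit were among them in each genotype, and the exception was RPS9. The medians of the 84 were 0.90, 0.85 and 0.84. RPL36AL was the 1 gene that fell relative to the median gene, in NONT, where 29.0% of all genes did, and in EXOSC5-KO, where 27.9% did. This scale makes no statement about amounts per cell, and whether a member rose or fell after triptolide depends on the scale chosen.

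The P stalk genes moved together. RPLP0 stood at 33857 and 48278 in untreated NONT and at 25563 and 22604 with triptolide, and at 37103 and 38980 against 33742 and 35601 in NUP93-KO. In EXOSC5-KO it stood at 42504 and 41646 against 36209 and 36014. Treated values were below untreated ones in each genotype. When set against the median gene, RPLP0 rose by 0.92 ± 0.04 (SE, limma adjusted p = 1.13e-07) in NONT, 0.81 ± 0.04 (adjusted p = 3.13e-07) in NUP93-KO and 0.89 ± 0.04 (adjusted p = 2.20e-07) in EXOSC5-KO. RPLP1 and RPLP2, the small acidic proteins that bind RPLP0, rose by 0.94 and 0.90 in NONT, by 0.83 and 0.88 in NUP93-KO and by 0.98 and 0.86 in EXOSC5-KO.

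Among the 60S genes, RPL5 and RPL11 are known to bind MDM2 with 5S RNA when ribosome assembly is disturbed. RPL11 held up more than most. It stood at 8157 and 11884 in untreated NONT and at 7198 and 6144 with triptolide, at 8908 and 10317 against 10195 and 11089 in NUP93-KO, and at 10892 and 10949 against 9241 and 9230 in EXOSC5-KO. Groups did not overlap in NONT or EXOSC5-KO and did overlap in NUP93-KO. Centred on the median gene it rose by 1.11 ± 0.05 (SE, limma adjusted p = 8.33e-08), 1.09 ± 0.05 (adjusted p = 1.74e-07) and 0.87 ± 0.05 (adjusted p = 4.31e-07) in the 3 genotypes, in the order used above. RPL5 rose by 0.82, 0.84 and 0.67. RPL22 and RPL26 were among the 3 members with the highest response in NONT and NUP93-KO respectively, and rose relative to the median gene by 1.14, 0.98 and 0.92 and by 1.02, 1.07 and 0.89. RPL3, at the peptidyl transferase centre, rose by 0.93, 0.94 and 0.87, RPL10, which joins the subunit last, by 0.82, 0.74 and 0.75, and RPL23 by 0.80, 0.77 and 0.64.

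RPL9 fell furthest of the canonical genes in NONT. It stood at 1126 and 1389 without drug and at 568 and 512 with it in NONT, at 1260 and 1240 against 788 and 1000 in NUP93-KO, and at 1302 and 1189 against 784 and 836 in EXOSC5-KO. Treated and untreated groups did not overlap in any genotype. With that centring RPL9 rose by 0.46 ± 0.11 (SE, limma adjusted p = 0.00519), 0.45 ± 0.11 (adjusted p = 0.00579) and 0.50 ± 0.11 (adjusted p = 0.00339), less than any other canonical gene except RPS9 in EXOSC5-KO. The call in NONT was lost without untreated NONT replicate 2 (adjusted p = 0.0504) and with a pseudocount of 10 (adjusted p = 0.0560), and that in NUP93-KO without its untreated replicate 2 (adjusted p = 0.0507) or its triptolide replicate 2 (adjusted p = 0.0563). Of its 31-base words, 92.7% also occur in a transcribed pseudogene, and what that adds to its value was not tested.

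The 40S genes were as uniform. RPSA, also known as a laminin receptor, stood at 20530 and 28195 in untreated NONT and at 14750 and 13395 with triptolide. It rose relative to the median gene by 0.90 ± 0.05 (SE, limma adjusted p = 2.62e-07) in NONT, and by 0.89 and 0.94 in the knockouts of NUP93 and EXOSC5. RPS6, the substrate of S6 kinase, rose by 0.92, 0.88 and 0.78, RPS3, at the mRNA entry channel, by 0.89, 0.80 and 0.82, and RPS27A, made as a fusion with ubiquitin, by 1.05, 1.02 and 0.94. RPS20 and RPS21 were among the 3 members with the highest responses in EXOSC5-KO and rose relative to the median gene by 1.02 and 1.00 there.

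RPS9 stood apart because its replicates did. It was listed at 1299 and 1865 in untreated NONT, at 1397 and 1230 in treated NONT, at 211 and 1046 in untreated NUP93-KO and at 899 and 632 in treated NUP93-KO. In EXOSC5-KO the untreated values were 1127 and 2832 and the treated ones 1693 and 466. Values overlapped between drug and no drug in all 3 genotypes, and no call was made on either scale. Of its 31-base words 47.0% occur in other genes' transcripts, and what they add to the scatter was not tested.

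The paralogs had a wider middle 50% than the canonical genes, of 0.80, 0.69 and 0.56 log2 units in NONT, NUP93-KO and EXOSC5-KO against 0.13, 0.13 and 0.17. The full range of the 77 canonical genes, −1.21 to −0.25, −0.49 to 0.68 and −1.01 to −0.10, was set in part by RPL9 and RPS9. On the spike-in scale their response to triptolide in NONT ran from −1.90 to −0.59, with a median of −1.38, against −0.76 for the 77 canonical genes, and in EXOSC5-KO it ran from −1.26 to −0.33. In NUP93-KO the lowest, RPL36AL, fell by 1.00 and the highest, RPS27L, stood at 0.08. In NONT all 7 fell, where 90.0% of all genes did. In NUP93-KO 4 fell, where 55.1% of all genes did, and in EXOSC5-KO 5 fell, where 64.3% did. Against the median gene, 3, 4 and 3 of the 7 rose, where 28.7%, 28.3% and 27.9% of all genes did. In NONT and in EXOSC5-KO 1 fell, where 29.0% and 27.9% of all genes did, and 0 fell in NUP93-KO.

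RPL36AL (chr14:49618530-49620626, minus strand, GRCh38) encodes a protein nearly identical to that of RPL36A (chrX:101390824-101396155, plus strand), and the pair was equally abundant without drug. RPL36AL stood at 2848 and 4249 in untreated NONT and at 1028 and 843 with triptolide, at 2954 and 3423 against 1543 and 1638 in NUP93-KO, and at 3718 and 3615 against 1539 and 1513 in EXOSC5-KO. RPL36A stood at 3157 and 4229 against 2530 and 2076 in NONT, at 3183 and 3969 against 3450 and 3791 in NUP93-KO, and at 3951 and 3978 against 3376 and 3582 in EXOSC5-KO. RPL36AL was thus far lower with drug in every genotype, whereas RPL36A overlapped in NUP93-KO. On the spike-in scale RPL36AL fell by 1.90 ± 0.20 (SE, limma adjusted p = 2.55e-07) in NONT, by 1.00 ± 0.20 (adjusted p = 0.000433) in NUP93-KO and by 1.26 ± 0.20 (adjusted p = 4.00e-05) in EXOSC5-KO. Relative to the median gene it fell by 0.23 (adjusted p = 0.00497) in NONT and 0.15 (adjusted p = 0.0422) in EXOSC5-KO, and was at −0.06 (adjusted p = 0.417) in NUP93-KO, while RPL36A rose by 1.00, 0.97 and 0.93. The call in EXOSC5-KO was lost in 8 of the 12 fits that left out 1 library, among them all 4 without an EXOSC5-KO library, at adjusted p-values up to 0.248, and without the variance trend (adjusted p = 0.144). The log2 ratio of RPL36AL to RPL36A, which does not depend on the scale of a library, changed by −1.23 (−1.31 to −1.15 over the pairings), −1.02 (−1.10 to −0.95) and −1.08 (−1.16 to −0.99). Of the 31-base words of RPL36AL 5.11% occur in RPL36A, and 41.5% of those of RPL36A occur in the read-through gene RPL36A-HNRNPH2.

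RPL10L and RPL39L followed RPL36AL. RPL10L (chr14:46651010-46651781) has a single exon and is known as a testis-expressed retrocopy of RPL10. It stood at 246 and 420 in untreated NONT and at 99.1 and 95.8 with triptolide, at 282 and 379 against 162 and 174 in NUP93-KO, and at 428 and 383 against 174 and 191 in EXOSC5-KO. It fell by 1.71 ± 0.27 (SE, limma adjusted p = 2.49e-05), 0.96 ± 0.27 (adjusted p = 0.00672) and 1.15 ± 0.27 (adjusted p = 0.00158) on the spike-in scale, and its ratio to RPL10 changed by −0.86, −0.76 and −0.78. RPL39L (chr3:187120948-187180908), the counterpart of the exit-tunnel protein RPL39, stood at 330 and 434 against 124 and 110 in NONT, at 314 and 396 against 167 and 194 in NUP93-KO, and at 498 and 457 against 281 and 266 in EXOSC5-KO. It fell by 1.69 ± 0.24 (adjusted p = 6.46e-06), 0.97 ± 0.24 (adjusted p = 0.00228) and 0.80 ± 0.24 (adjusted p = 0.00743), and its ratio to RPL39 changed by −1.03, −1.01 and −0.66. The call of RPL10L in NUP93-KO was lost without NUP93-KO untreated replicate 2 (adjusted p = 0.0962), and that of RPL39L in EXOSC5-KO without EXOSC5-KO untreated replicate 1 (adjusted p = 0.0617) or triptolide replicate 2 (adjusted p = 0.0533). The treated groups lay below the untreated ones in each genotype for both genes. Relative to the median gene neither passed the test, with values of −0.04, −0.01 and −0.03 for RPL10L and −0.02, −0.02 and 0.31 for RPL39L. Without the variance trend RPL39L in EXOSC5-KO did pass (limma adjusted p = 0.0431).

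RPL7L1 and RPL26L1 were also lower with drug, without overlap in any genotype. RPL7L1, whose product is known from ribosome precursors rather than mature ribosomes, stood at 2935 and 4416 against 1409 and 1350 in NONT, at 2635 and 3756 against 2068 and 2299 in NUP93-KO, and at 4718 and 3919 against 2222 and 2270 in EXOSC5-KO. It fell by 1.38 ± 0.22 (SE, limma adjusted p = 2.12e-05), 0.53 ± 0.22 (adjusted p = 0.0483) and 0.94 ± 0.22 (adjusted p = 0.00129) on the spike-in scale, and its ratio to RPL7 changed by −0.63, −0.49 and −0.52. Relative to the median gene RPL7L1 went the other way. It stood at 0.29 (adjusted p = 0.0539) in NONT, rose by 0.41 (adjusted p = 0.0105) in NUP93-KO and stood at 0.18 (adjusted p = 0.219) in EXOSC5-KO, and the call in NUP93-KO was lost without its untreated replicate 1 (adjusted p = 0.0971) or its triptolide replicate 2 (adjusted p = 0.0569). The spike-in call in NUP93-KO was lost in 9 of 12 fits without 1 library, at adjusted p-values up to 0.443, and held without either untreated NONT replicate and without NUP93-KO untreated replicate 1. RPL26L1 stood at 592 and 940 against 391 and 350 in NONT, at 651 and 766 against 464 and 543 in NUP93-KO, and at 858 and 945 against 573 and 659 in EXOSC5-KO. Its ratio to RPL26 changed by −0.36, −0.62 and −0.33, with no overlap in any genotype. It rose relative to the median gene by 0.66 ± 0.12 (SE, limma adjusted p = 0.000688), 0.45 ± 0.12 (adjusted p = 0.00742) and 0.56 ± 0.12 (adjusted p = 0.00208), less than RPL26 did. The second call was lost without NUP93-KO triptolide replicate 2 (adjusted p = 0.0566).

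RPL22L1 and RPS27L had responses within the range of the canonical genes in each genotype. RPL26L1 also lay within that range, but below every canonical gene other than RPL9 and RPS9. RPL22L1, whose splicing and level RPL22 is known to restrain, stood at 601 and 834 against 426 and 395 in NONT, at 736 and 839 against 744 and 773 in NUP93-KO, and at 594 and 621 against 459 and 449 in EXOSC5-KO. It rose relative to the median gene by 0.88 ± 0.10 (SE, limma adjusted p = 2.04e-05), 0.89 ± 0.10 (adjusted p = 2.08e-05) and 0.69 ± 0.10 (adjusted p = 0.00013). Its ratio to RPL22 changed by −0.25, −0.09 and −0.23, with overlap in NUP93-KO. RPS27L stood at 2002 and 3068 against 1738 and 1550 in NONT, at 2174 and 2396 against 2387 and 2446 in NUP93-KO, and at 3341 and 3273 against 2655 and 2624 in EXOSC5-KO. It rose relative to the median gene by 1.08 ± 0.06 (adjusted p = 3.28e-07), 1.03 ± 0.06 (adjusted p = 5.18e-07) and 0.79 ± 0.06 (adjusted p = 3.00e-06), and its ratio to RPS27 changed by 0.10, 0.05 and −0.18, with overlap in NONT and NUP93-KO. The differences between pairs were not tested, since the ratios are 2 libraries a group.

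**Figure D3:**
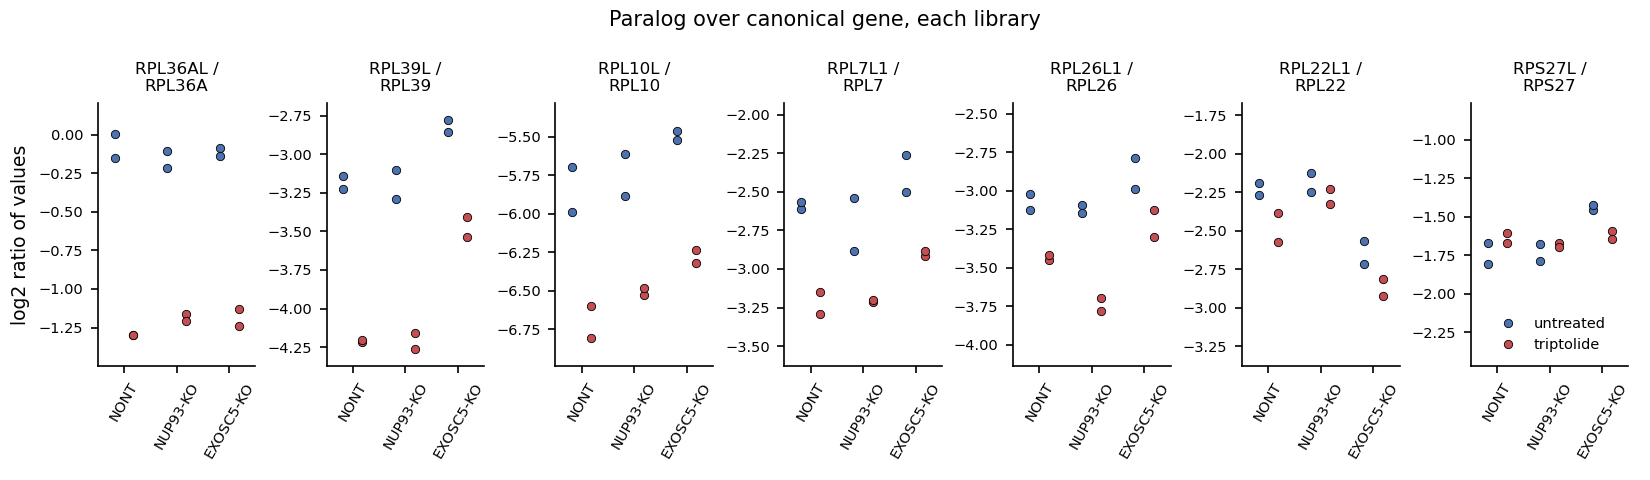
log2 ratio of each paralog to its canonical gene in every library, untreated (blue) and with triptolide (red), by genotype. All panels span the same range of log2 units but start at different levels. The ratio was lower with triptolide in every genotype for RPL36AL, RPL39L, RPL10L, RPL7L1 and RPL26L1, and overlapped in NUP93-KO for RPL22L1 and in NONT and NUP93-KO for RPS27L.

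The start motif was found in 1 of the 6 paralogs with a start sequence and in most canonical genes that had one. Whether it bears on the response was not tested. Canonical genes with it had a median response of −0.75, −0.08 and −0.25 on the spike-in scale, in the order NONT, NUP93-KO, EXOSC5-KO, and the 16 without it one of −0.79, −0.10 and −0.28. Canonical transcript length had a rank correlation with the response of −0.35, −0.35 and −0.38 across the 77 canonical genes, whose values come from the same libraries. The 33 members with over 50% of their 31-base words in other genes' transcripts had a median response of −0.75 in NONT, and the other 51 had one of −0.78.

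Genes that work with the ribosome were read beside its proteins. For comparison, 90.0% (NONT), 55.1% (NUP93-KO) and 64.3% (EXOSC5-KO) of all genes fell on the spike-in scale. Of 15 other genes known to carry a TOP motif, such as translation factors, 15 fell in NONT, while 1 did in NUP93-KO and 8 did in EXOSC5-KO, with medians of −0.94, −0.15 and −0.48 on the spike-in scale. The 78 mitochondrial ribosomal protein genes had medians of −1.55, −0.84 and −0.997, and 77, 58 and 63 of them fell. The 20 ribosome biogenesis genes had medians of −1.96, −1.03 and −1.33, and 20, 15 and 18 fell. The 13 mRNAs transcribed in mitochondria, which RNA polymerase II does not make, had medians of −0.41, 0.28 and 0.05, and 5, 0 and 0 fell while 0, 1 and 0 rose. Cytosolic ribosomal protein genes and TOP genes thus lay between the mitochondrial mRNAs and the median gene, whereas the mitochondrial ribosome and biogenesis genes had medians nearer to that of all genes.

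Without drug, no ribosomal protein gene was called different between NUP93-KO and NONT. None passed the limma test on the spike-in scale, where 0.0217% of all genes did, or relative to the median gene, where 1.01% did, although 1 was lower at an unadjusted p under 0.05 on the first scale and 1 lower and 2 higher on the second. The share of all genes at an unadjusted p under 0.05 is not given here. The median difference of the members, NUP93-KO minus NONT, was −0.04 on the spike-in scale, against −0.09 for all genes.

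In untreated EXOSC5-KO none passed on the spike-in scale either, where 0.521% of all genes did, and none had an unadjusted p under 0.05. Relative to the median gene, 10 of the 84 were lower than in NONT, where 3.88% of all genes were, and 1 was higher, where 2.12% were. Among the 10 were RPL10A, RPS16, RPS28, RPL18, RPL13A, RPL3, RPS3 and RPL28. RPL10A, a protein near the exit site of tRNA, differed most, by −0.39 ± 0.05 (SE, limma adjusted p = 0.002), and RPS16 stood at −0.27 ± 0.05 (adjusted p = 0.00864). RPL10A stood at 7019 and 9947 in untreated NONT and at 6852 and 6876 in EXOSC5-KO, and the EXOSC5-KO values were below both NONT values. RPS27L was the 1 that was higher, by 0.31 ± 0.06 (adjusted p = 0.0162), with 2002 and 3068 in NONT and 3341 and 3273 in EXOSC5-KO. RPL22L1 was at −0.32 ± 0.10 (adjusted p = 0.0828) and did not pass. The median of the 84 was −0.07, against −0.03 for all genes. The count of 11 moved with single libraries. It was 1 without untreated NONT replicate 1, 2 and 3 without untreated EXOSC5-KO replicate 1 or 2, 6 without untreated NONT replicate 2 or either treated EXOSC5-KO replicate, and 7 without either untreated NUP93-KO replicate. RPL10A passed in each of the 12 fits that left out 1 library, but without the variance trend neither it (adjusted p = 0.0573) nor any other member did. RPS27L did not pass without untreated NONT replicate 1 (adjusted p = 0.121) or without untreated EXOSC5-KO replicate 1 (adjusted p = 0.0536) or 2 (adjusted p = 0.126), and RPS16 did not without replicate 1 of untreated NONT (adjusted p = 0.0718) or of untreated EXOSC5-KO (adjusted p = 0.0635).

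**Figure D4:**
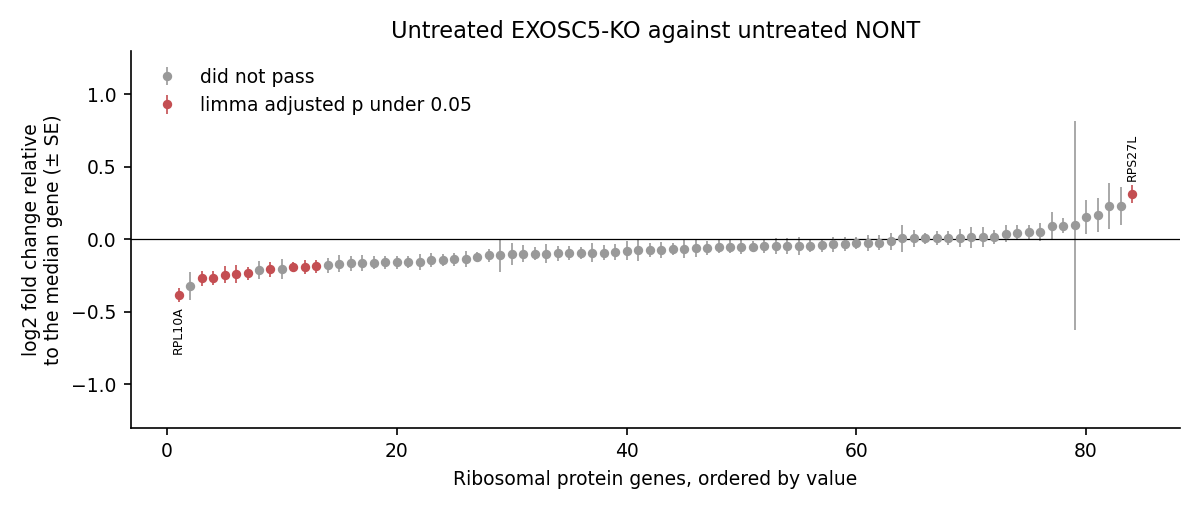
Difference between untreated EXOSC5-KO and untreated NONT for each of the 84 ribosomal protein genes, relative to the median gene (log2, points, with SE as bars), in order of size. The 11 genes past an adjusted p of 0.05 by limma are in red, with RPL10A lowest at −0.39 and RPS27L highest at 0.31, and the wide bar is RPS9.

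Whether the knockouts changed the response to triptolide was asked with the difference between the response in a knockout and that in NONT. On the spike-in scale no member passed in NUP93-KO, where 0.775% of all genes did, or in EXOSC5-KO, where 0.333% did. The medians of the 84 were 0.69 and 0.50, beside 0.74 and 0.57 for all genes, so the members moved by about as much as genes in general. At an unadjusted p under 0.05, 76 were less reduced in NUP93-KO and 13 in EXOSC5-KO. Without untreated NONT replicate 1, the library with the lower total of its group, nearly all members passed, all less reduced than in NONT. The outcome on this scale thus turned on that library. The share of all genes that passed without it is not given here, so this is not read as a trait of the members. Relative to the median gene none passed in either knockout, where 0.0290% and 0.0941% of all genes did, and this held without any single library. There 3 were lower at an unadjusted p under 0.05 in NUP93-KO, and 6 were lower and 1 higher in EXOSC5-KO, again without the share of all genes. Both differences share the NONT libraries and are not independent of each other.

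Some rows of the table could not be told from another row. RPS25 and RPL7A were each identical in all 12 libraries to an unmatched gene ID, so each value belongs to both. Across the 84 genes, the share of 31-base words found in transcripts of other genes ran from 3.64% to 96.7%, with a median of 40.9%, and the gene sharing most was a pseudogene for 69 of them.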

How the data were processed

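Poly(A)-selected RNA of 12 U2OS libraries was measured by strand-specific RNA sequencing. Per the submitters' processing notes, reads were quantified with kallisto 0.46.1 on GRCh38 and scaled with DESeq2. The authors pseudoaligned reads to Ensembl transcripts with ERCC sequences, summed them per gene, kept protein-coding genes and divided by size factors from the 92 ERCC transcripts, so that the deposited values are a spike-in-normalised signal, not counts. An error in cell number or spike-in volume moves all genes of a library together.

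The deposited signal was analysed as log2(value + 1), which understates changes of low genes, with limma 3.58.1 in R 4.3.3 (6 group means over all 12 libraries, trended eBayes, two-sided, Benjamini-Hochberg over 13811 genes, threshold 0.05), also after centring each library on the median gene. There were 7 contrasts. The model was tested on simulated data. Symbols, coordinates and lengths came from GENCODE 44 (19584 of 22379 IDs matched), start sequences from RefSeq, and Python 3.11.15 with pandas 2.3.3 made summaries. Depth in reads is unknown from this table, and ERCC RNAs made up 0.246% to 0.830% of it. Alternatives covered scaling, pseudocount, filter, trend, libraries and a replicate block. Reads shared between copies were gauged by 31-base words.

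The members, lists and tests were chosen with earlier results of these data known. Genes named were the paralogs and partners, the P stalk, RPSA, RPS3, RPS6, RPS27A, RPL3, RPL5, RPL10, RPL11 and RPL23, the 3 highest and lowest responses per genotype, up to 3 called members per direction without drug, and the 3 highest and lowest levels per kb. RPL9, RPS9, RPL22L1 without drug and other members of small counts were added after their values were seen. A few genes that the rule named are not reported here. Replicate numbers did not pair samples: deviations of same-numbered samples correlated between −0.05 and 0.04.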

Additional observations from a re-analysis of the deposited data

How the results depend on the processing

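The counts below are of members only, without the share of all genes passing under the same setting. They describe how calls moved with the processing, not a trait of the members. The direction after triptolide depended on the scaling. With median-of-ratios scaling in place of the spike-ins, 80, 80 and 80 members passed (NONT, NUP93-KO, EXOSC5-KO), nearly all higher, and with libraries scaled to the same total 80, 79 and 78 passed. RPL7L1 then stood at 0.27, 0.37 and 0.14 and RPL39L in EXOSC5-KO at 0.28 under median of ratios, and RPL7L1 in NUP93-KO at 0.0399 with the same total. Scaling to the mitochondrial mRNAs gave 60 lower in NUP93-KO and 48 in EXOSC5-KO. Fitting only the libraries compared gave 13 in NONT, 74 in EXOSC5-KO and 1 in untreated NUP93-KO. Without the trend 3, 5 and, for untreated EXOSC5-KO relative to the median gene, 0 passed, and without the filter 5 did in EXOSC5-KO. A minimum mean of 50 left 6 in untreated EXOSC5-KO. On other scalings untreated EXOSC5-KO had 6 (median of ratios), 3 (same total) and 4 (mitochondrial). The share was 7.05% in untreated NUP93-KO and 9.55% in treated EXOSC5-KO without mitochondrial mRNAs, and 6.92% and 9.32% without paralogs. The causes were not tested.

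With a replicate block 3 members passed in NUP93-KO with triptolide in place of 5, and RPL7L1 there did not pass. RPL7L1 in NONT relative to the median gene then passed (limma adjusted p = 0.0423), and it also did with a minimum mean of 50 (adjusted p = 0.0492). The number of calls moved by at most 1.5 times in all other comparisons under the block.

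Leaving out each library in turn gave 74 to 83 members called after triptolide in NONT, 3 to 8 in NUP93-KO (2 to 8 of them lower) and 4 to 44 in EXOSC5-KO. Without drug the range was 0 to 0 in NUP93-KO, and 0 to 1 on the spike-in scale and 1 to 9 relative to the median gene in EXOSC5-KO. Differences in response ranged from 0 to 83 and 0 to 82 on the spike-in scale. Relative to the median gene 79 to 81, 77 to 81 and 79 to 80 members passed after triptolide, RPL39L ranged from −0.0782 to 0.0520 in NONT and from −0.12 to 0.0714 in NUP93-KO, and RPL10L from −0.16 to 0.0896, −0.15 to 0.13 and −0.0948 to 0.0337 in the 3 genotypes. The change of the RPS27L to RPS27 ratio in NUP93-KO ranged from −0.0033 to 0.11.

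These are 2 libraries a group and a scale set by cell counts and spike-in volume. The 33 members with over 50% of their words shared were also left out, a choice made after seeing the data. Of the other 51, 50 fell in NONT, where 90.0% of all genes did.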
